A study of Homo sapiens with 9 samples.

Results

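The red cell membrane genes described here are the glycophorins GYPB, GYPC and GYPE, the anion exchanger SLC4A1 (band 3) and the membrane skeleton genes EPB41 (protein 4.1), EPB42 (protein 4.2) and ANK1 (ankyrin). They were chosen by name, and all 7 were measured, among 58214 genes, by 78 of the 198775 transcripts that could be joined to the annotation. RNA came from K562 cells, a human erythroleukaemia line that makes part of the erythroid gene programme without maturing into red cells. The series holds 9 libraries of poly(A) RNA in 3 groups of 3 replicates: cells that received the non-targeting siRNA pool (SCR), the siRNA against DHX34, or the siRNA against UPF1. All cells of the 3 groups were the same line without an engineered allele, were transfected with siRNA by lipid reagent, and were harvested on day 4, so SCR is a transfected control and not an untreated one. UPF1 is the core helicase of nonsense-mediated decay (NMD), by which cells destroy messages that carry an early stop codon, and DHX34 is another RNA helicase that acts in NMD and in pre-mRNA splicing. The knockdowns ask how loss of each helicase changes gene expression and isoform choice in a leukaemia line.

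The red cell keeps its shape because a skeleton of spectrin and actin hangs beneath the lipid bilayer from transmembrane proteins. Band 3 carries one set of anchors, in which ankyrin binds band 3 to spectrin and protein 4.2 stabilises that contact, while glycophorin C carries the other, in which protein 4.1 ties the tail of glycophorin C to the spectrin-actin junctions. Glycophorin B is a sialic acid-rich surface protein that carries antigens of the MNS blood group, and GYPE is a close copy of its gene with little known function. Most of these genes reach their full level only late in red cell maturation.

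Targeted genes and library composition were checked first. DHX34 was at 72.3, 74.0 and 74.5 CPM (counts scaled to a common library size) in SCR and at 30.1, 30.0 and 34.0 CPM in the DHX34 knockdown, a log2 fold change of -1.23 (SE 0.05, adjusted p 3.33e-07 by edgeR). UPF1 was at 252, 266 and 266 CPM in SCR and at 105, 107 and 105 CPM in the UPF1 knockdown, a log2 fold change of -1.31 (SE 0.03, adjusted p 2.41e-10 by edgeR). Each knockdown thus left a part of its target, and neither target was called under the other siRNA (UPF1 at 255 to 269 CPM in the DHX34 knockdown, DHX34 at 73.5 to 76.3 CPM in the UPF1 knockdown). Where a level is given below as without DHX34 or without UPF1, these partial knockdowns are meant. Library totals ran from 73478797 to 103625443 expected counts. All 12 erythroid markers examined were at or above 1 CPM, and their summed level was 12175 to 13236 CPM in SCR, 10306 to 11530 CPM in the DHX34 knockdown and 7451 to 7897 CPM in the UPF1 knockdown. Of 8 megakaryocytic markers, 3 reached 1 CPM in SCR and in the UPF1 knockdown and 4 in the DHX34 knockdown, with GP9 at 0 in every library, and the summed level was 183 to 196, 162 to 168 and 149 to 169.6 CPM in SCR, DHX34 and UPF1 libraries. Of 8 monocytic and granulocytic markers only LYZ reached 1 CPM, and the list summed to 17.4 to 17.7, 31.5 to 35.8 and 12.9 to 13.5 CPM in the same order. Of 6 lymphoid markers 2 reached 1 CPM, with sums of 12.4 to 12.7, 12.0 to 13.2 and 4.33 to 4.98 CPM. Mitochondrial transcripts took 2.44% to 2.56% of counts in SCR, 1.67% to 2.13% in the DHX34 knockdown and 1.81% to 1.96% in the UPF1 knockdown. The part of these shifts in the results below was not tested.

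In SCR the 7 genes spanned a wide range of levels. On the TPM scale, which divides by transcript length and allows genes to be compared, the SCR means were 216 ± 3.1 for GYPC, 199.7 ± 14.4 for GYPB, 67.0 ± 2.95 for GYPE, 54.9 ± 4.09 for EPB41, 46.3 ± 1.29 for ANK1, 3.09 ± 0.495 for EPB42 and 0.804 ± 0.118 for SLC4A1 (SD, n = 3 for each). GYPC and GYPB were the only neighbours in this order whose SCR libraries overlapped. The length used is the effective length, which is corrected for fragment length, and its mean was only 208 bases for GYPB. GYPB had fewer counts than GYPE in SCR (means of 41.6 and 67.0 CPM), so its place in the order rests on that correction. ANK1 stood 15-fold above EPB42, so the partners of the band 3 complex were far from equal, and band 3 itself was the lowest of the 7.

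Both knockdowns lowered GYPB and EPB42, while GYPE fell without DHX34 and rose without UPF1. In the DHX34 knockdown 0 members rose and 3 of 7 fell (GYPB, GYPE and EPB42), where 5.54% of the 17004 genes tested were called higher and 4.86% were called lower. In the UPF1 knockdown 1 member rose (GYPE) and 3 fell (GYPB, GYPC and EPB42), where 12.4% of the 17184 genes tested were called higher and 12.9% lower. When the knockdowns were set against each other, GYPE and GYPB were higher and SLC4A1 lower in the UPF1 knockdown, where 9.89% of 17435 genes were called higher and 7.47% lower. A gene was called at an edgeR adjusted p of at most 0.005. On the TPM scale limma called 0 members higher and 2 lower in the DHX34 knockdown, where it called 4.62% of all genes higher and 0.547% lower. It called 2 higher and 1 lower in the UPF1 knockdown (18.7% and 1.64% of all genes) and 1 higher and 0 lower between them (5.8% and 2.47%). The median log2 fold change of the members was -0.15 in the DHX34 and -0.24 in the UPF1 knockdown, against 0.02 in each over all genes tested, and -0.08 against 0.01 in the direct comparison. Over all genes tested, log2 fold changes rose with gene length in both knockdowns (Spearman 0.24 for DHX34 and 0.16 for UPF1). In the DHX34 knockdown the shorter members, at mean effective lengths of 208 (GYPB), 955 (GYPC), 1086 (GYPE) and 1858 (EPB42) bases, had negative values. Those of SLC4A1, EPB41 and ANK1, at 4480 to 5404 bases, were positive. An alternative fit removed this trend. In the DHX34 knockdown GYPB and GYPE stayed called under all 15 alternative settings, that fit among them, and EPB42 under 13. GYPB lost its call in the UPF1 knockdown under that fit. The part of the trend in the member differences was not tested otherwise. Because the RNA was taken from whole cultures, fewer cells that express a gene and less of its RNA per cell cannot be told apart.

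**Figure D1:**
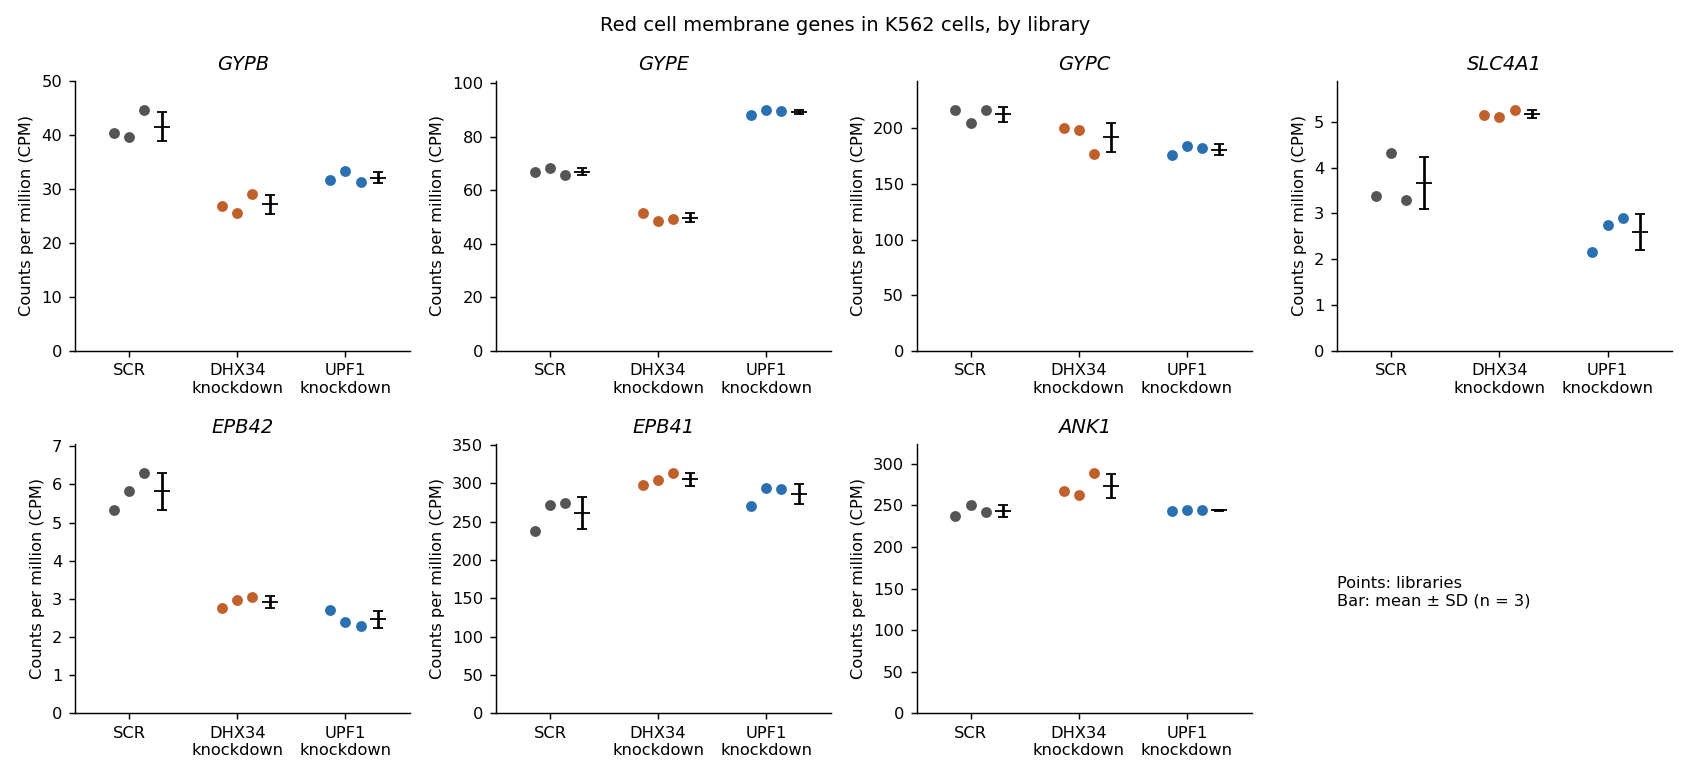
Level of each of the 7 genes in CPM (vertical axes from 0) in every library of the SCR, DHX34 knockdown and UPF1 knockdown groups, with points for libraries and a bar for mean ± SD (n = 3). EPB42 sits at 5.33 to 6.31 CPM in SCR and at or below 3.04 CPM in all 6 knockdown libraries, and GYPE is lowest without DHX34 and highest without UPF1.

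The libraries of the DHX34 and SCR groups did not overlap for any of the 7 members, but 41.5% of all genes tested were separated in this way, so separation alone says little. The same held for 5 of 7 members in the UPF1 knockdown (50.5% of genes tested) and for 6 of 7 in the direct comparison (45.7%).

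GYPB (ENSG00000250361, chromosome 4, 143996104 to 144019380 on GRCh38) fell in both knockdowns. It was at 40.3, 39.7 and 44.7 CPM in SCR, at 26.8, 25.6 and 29.0 CPM in the DHX34 knockdown and at 31.6, 33.3 and 31.4 CPM in the UPF1 knockdown. All 6 knockdown libraries lay below all 3 SCR libraries, and the DHX34 libraries lay below the UPF1 libraries. The log2 fold change was -0.62 in the DHX34 knockdown (SE 0.06, adjusted p 4.74e-05 by edgeR) and -0.38 in the UPF1 knockdown (SE 0.05, adjusted p 5.93e-05 by edgeR). The loss was thus to 0.651 of the SCR level without DHX34 and to 0.767 without UPF1. The direct comparison put GYPB higher by 0.25 in the UPF1 knockdown (SE 0.05, adjusted p 0.00428 by edgeR), a call that was lost when any library but DHX34 replicate 3 was left out (adjusted p 0.012 to 0.025). The call in the UPF1 knockdown was lost on the TPM scale (adjusted p 0.0086 by limma on log2(TPM + 0.5)) and when the trend with gene length was removed (adjusted p 0.0053).

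GYPE (ENSG00000197465, chromosome 4, 143870864 to 143905563) moved in opposite directions in the knockdowns. It was at 66.9, 68.2 and 65.8 CPM in SCR, at 51.6, 48.3 and 49.4 CPM in the DHX34 knockdown and at 88.3, 90.0 and 89.5 CPM in the UPF1 knockdown. The 3 groups did not overlap, with SCR between the knockdowns. The log2 fold change was -0.43 in the DHX34 knockdown (SE 0.04, adjusted p 5.85e-05 by edgeR) and 0.41 in the UPF1 knockdown (SE 0.03, adjusted p 1.83e-06 by edgeR). Set directly against the DHX34 knockdown, GYPE in the UPF1 knockdown was 1.81-fold higher, a log2 difference of 0.85 (SE 0.04, adjusted p 4.4e-08 by edgeR). With counts scaled for the mean transcript length of the gene in each library the rise in the UPF1 knockdown was 0.15 and was not called (adjusted p 0.020), whereas the fall without DHX34 and the direct difference were called under every alternative run.

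GYPB and GYPE lie near each other on the minus strand of chromosome 4 and share much of their sequence, so reads can be split between them and other copies of the family, and both levels are uncertain to that extent. To show how alike they are, exon 2 of each, which codes for the outer end of the protein, is given with the 4 bases of 99 that differ in capitals, for GYPB at chr4:144001185-144001283 and for GYPE at chr4:143880411-143880509 (GRCh38, minus strand).
GYPB exon 2: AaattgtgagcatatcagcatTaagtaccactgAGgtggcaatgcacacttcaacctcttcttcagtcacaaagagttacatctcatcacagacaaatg
GYPE exon 2: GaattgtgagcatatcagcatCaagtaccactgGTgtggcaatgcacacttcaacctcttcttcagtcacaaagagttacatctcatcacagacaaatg

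With the counts of GYPB and GYPE added together, the log2 fold change was -0.50 in the DHX34 knockdown, 0.15 in the UPF1 knockdown and 0.67 between them, each called by edgeR (adjusted p 1.1e-05, 0.0011 and 1.9e-07). A split of reads between the pair alone leaves this sum unchanged.

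GYPC (ENSG00000136732, chromosome 2, 126656133 to 126696667), which anchors protein 4.1, was called lower only in the UPF1 knockdown. It was at 216, 205 and 217 CPM in SCR, at 201, 198 and 177 CPM in the DHX34 knockdown and at 176, 184 and 183 CPM in the UPF1 knockdown. DHX34 replicate 3 stood with the UPF1 libraries and the other DHX34 libraries lay between the groups. The log2 fold change was -0.24 in the UPF1 knockdown (SE 0.03, adjusted p 6.59e-05 by edgeR) and -0.15 in the DHX34 knockdown (SE 0.05, adjusted p 0.055 by edgeR), and the direct difference of -0.07 was not called (SE 0.05, adjusted p 0.27 by edgeR). On the TPM scale GYPC differed by -0.03 between the UPF1 knockdown and SCR (limma adjusted p 0.39), on a scale where the median over all genes was itself shifted by 0.17, so relative to that median it was again lower. That shift was 0.13 for the DHX34 knockdown.

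**Figure D2:**
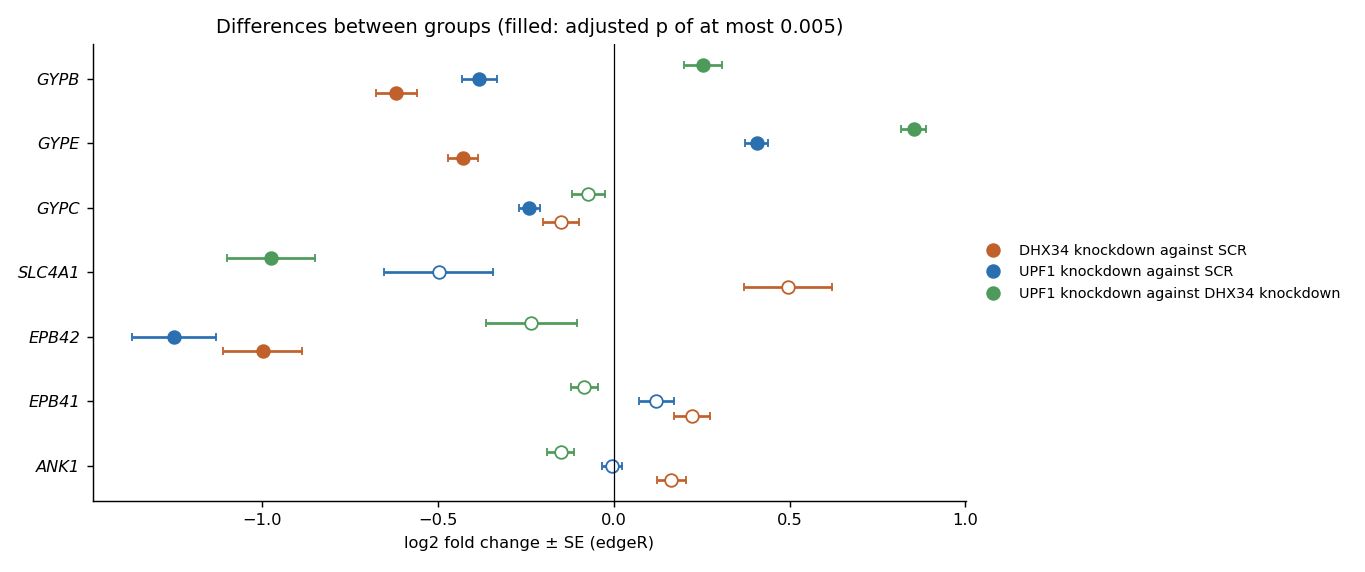
Difference of each gene in log2 fold change ± SE (horizontal axis) for the DHX34 and the UPF1 knockdown against SCR and for the UPF1 against the DHX34 knockdown, with filled points where the edgeR adjusted p was at most 0.005. GYPE lies at -0.43 and 0.41 in the knockdowns, and EPB42 at -0.999 and -1.25.

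SLC4A1 (ENSG00000004939, chromosome 17, 44248390 to 44268141), the chloride-bicarbonate exchanger of the red cell, had the lowest level per length of the 7. It was at 3.38, 4.32 and 3.30 CPM in SCR, at 5.14, 5.10 and 5.26 CPM in the DHX34 knockdown and at 2.15, 2.75 and 2.90 CPM in the UPF1 knockdown. The DHX34 libraries were the highest and the UPF1 libraries the lowest, with no overlap between groups. Neither difference from SCR was called, at log2 fold changes of 0.50 in the DHX34 knockdown (SE 0.13, adjusted p 0.014 by edgeR) and -0.50 in the UPF1 knockdown (SE 0.16, adjusted p 0.022 by edgeR). The difference between the knockdowns was called, with SLC4A1 at 0.508 of its DHX34 knockdown level in the UPF1 knockdown, a log2 difference of -0.98 (SE 0.13, adjusted p 0.000164 by edgeR). The call was lost by limma on log2(TPM + 0.5) (adjusted p 0.0085).

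EPB42 (ENSG00000166947, chromosome 15, 43197227 to 43221018), the partner that stabilises the contact of band 3 with ankyrin, showed the largest fall of the 7 in each knockdown. It was at 5.33, 5.81 and 6.31 CPM in SCR, at 2.75, 2.96 and 3.04 CPM in the DHX34 knockdown and at 2.71, 2.39 and 2.28 CPM in the UPF1 knockdown. Every knockdown library was well below every SCR library. The log2 fold change was -0.999 in the DHX34 knockdown (SE 0.11, adjusted p 0.000136 by edgeR) and -1.25 in the UPF1 knockdown (SE 0.12, adjusted p 6.28e-06 by edgeR), so 0.5003 and 0.420 of the SCR level remained. Between the knockdowns the difference of -0.23 was not called (SE 0.13, adjusted p 0.20 by edgeR). On the TPM scale the call in the DHX34 knockdown was lost (limma adjusted p 0.023 on log2(TPM + 0.5)), and the call in the UPF1 knockdown was kept (0.0021).

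ANK1 (ENSG00000029534, 41653220 to 41896741 on chromosome 8), which links band 3 to spectrin, and EPB41 (ENSG00000159023, chromosome 1, 28887091 to 29120046), which binds the spectrin-actin junction, were called in no comparison. ANK1 was at 237, 251 and 242 CPM in SCR, at 267, 262 and 289 CPM in the DHX34 knockdown and at 244 CPM in each UPF1 knockdown library. The DHX34 libraries lay above SCR by 0.16 on the log2 scale (SE 0.04, adjusted p 0.015 by edgeR), and the UPF1 libraries lay within the range of SCR, with a log2 fold change of -0.0047 (SE 0.03, adjusted p 0.92 by edgeR). Length-scaled counts gave -0.0053 for ANK1 in the DHX34 knockdown, and in the direct comparison the difference was -0.15 (SE 0.04, adjusted p 0.012 by edgeR).

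EPB41 was at 238, 272 and 275 CPM in SCR, at 297, 305 and 314 CPM in the DHX34 knockdown and at 271, 295 and 293 CPM in the UPF1 knockdown. The DHX34 libraries were above all SCR libraries, while the UPF1 libraries overlapped them. The log2 fold change was 0.22 without DHX34 (SE 0.05, adjusted p 0.0091 by edgeR), 0.12 in the UPF1 knockdown (SE 0.05, adjusted p 0.072 by edgeR) and -0.08 in the direct comparison (SE 0.04, adjusted p 0.13 by edgeR). EPB41 was called higher in the UPF1 knockdown on the TPM scale (log2 difference 0.34, limma adjusted p 0.0044 on log2(TPM + 0.5)), where the median over all genes was shifted by 0.17.

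Across SCR and both knockdowns the 2 genes most like each member in pattern were found over the 9 libraries among 10063 genes of at least 5 CPM, as the root mean square difference of centred log2 CPM. They were NR2F2 (0.0755) and ALDH1A2 (0.0781) for GYPB, SNHG29 (0.0685) and ARRDC3 (0.0686) for GYPE, HINT1 (0.0128) and PPP1CA (0.0214) for GYPC, GEMIN5 (0.0234) and SALL2 (0.0309) for EPB41, and DHX29 (0.0213) and ZNF592 (0.023) for ANK1. For scale, the same measure between each member and a flat line was 0.258 for GYPB, 0.342 for GYPE, 0.111 for GYPC, 0.114 for EPB41 and 0.0867 for ANK1. SLC4A1 and EPB42 were below the level needed for this measure. None of the genes found belongs to the other red cell membrane genes listed further on.

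Promoters were compared because GYPB and EPB42 fell in both knockdowns and GYPE is a close copy of GYPB. RefSeq sequences (GRCh38.p14) from 250 bases before to 50 after each start were at hand for 5 members, and AGATAA, the core of a site that erythroid GATA factors bind, was searched on both strands. It occurred in the promoters of GYPB, GYPE and EPB42 and not in those of GYPC or EPB41, while 10.3% of 35116 single promoters held it. The members are counted by gene, and GYPB and GYPE are close copies, so this share is not a like measure. EPB42 held the motif at -208 and at -61 from its start, and the site at -61 is printed. In the stretches of 46 bases around the motif, GYPB and GYPE differed at 2 bases. They are shown with AGATAA in capitals, for GYPB at chr4:144019359-144019404, for GYPE at chr4:143905579-143905624 and for EPB42 at chr15:43221054-43221099, all on the minus strand.
GYPB promoter: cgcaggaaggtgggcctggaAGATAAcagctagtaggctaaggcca
GYPE promoter: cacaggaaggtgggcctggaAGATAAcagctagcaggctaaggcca
EPB42 promoter: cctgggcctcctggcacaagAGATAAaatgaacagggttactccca

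GYPE shared the motif and nearly the same bases with GYPB, and any part of the motif in the differences between groups was not tested. The match describes these letters alone, and no binding was measured.

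Isoforms were examined next. Salmon assigns reads to similar transcripts by estimation, so shares of isoforms carry that error as well as the spread between libraries. Of the 78 member transcripts, 45 passed the filter on low counts in the DHX34 comparison and 0 were called at an edgeR adjusted p of at most 0.005, where 0.0463% of 60416 transcripts were called. Of those 45, 17 had an unadjusted p under 0.05 (15.2% of all transcripts tested), DESeq2 called 7 (4.57%), and limma on log2(TPM + 0.5) called 1 (0.331%). In the UPF1 knockdown 4 of 44 were called, EPB42-201, GYPC-201, GYPE-201 and GYPB-202, where 2.59% of 62497 transcripts were called. Between the knockdowns 2 of 43 were called, GYPE-201 and GYPE-203, where 1.05% of 64325 were called. Leaving out any 1 library left 0 calls in the UPF1 knockdown, and between the knockdowns 1 call without any DHX34 library and 0 without any UPF1 library. Calls over all transcripts fell as well, in the UPF1 knockdown from 1620 to between 37 (of 67686) and 569 (of 68130). Between the knockdowns they fell from 677 to between 57 (of 70201) and 345 (of 70359), so the loss was not particular to the members.

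GYPE is described first among the isoforms. Its annotation holds 3 transcripts: GYPE-201 (ENST00000358615), which ends in an exon of 1389 bases, GYPE-202 (ENST00000437468), which ends in another exon of 197 bases, and GYPE-203 (ENST00000506264), which is annotated as an NMD substrate. GYPE-201 was at 41.8, 44 and 40.9 TPM in SCR, at 37.4, 35.0 and 37.9 TPM in the DHX34 knockdown and at 66.2, 67.7 and 65.8 TPM in the UPF1 knockdown. It rose in the UPF1 knockdown by 0.41 on the log2 scale of counts (SE 0.03, adjusted p 0.00135 by edgeR), and was 1.74-fold higher there than in the DHX34 knockdown (log2 difference 0.80, SE 0.04, adjusted p 0.00044 by edgeR). The UPF1 libraries were the highest and the DHX34 libraries the lowest, as for the gene.

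GYPE-202, the form with the short last exon, was below SCR in every knockdown library. Its level was 24.2, 25.3 and 22.6 TPM in SCR, 10.4, 11.8 and 9.69 TPM in the DHX34 knockdown and 20.2, 13.9 and 18.5 TPM in the UPF1 knockdown. The log2 differences from SCR were -1.35 in the DHX34 knockdown (SE 0.15, adjusted p 0.015 by edgeR) and -0.70 in the UPF1 knockdown (SE 0.16, adjusted p 0.047 by edgeR), neither called at 0.005. The share of GYPE-202 among the transcripts with either last exon went from 35.9% ± 0.673 in SCR to 22.3% ± 2.47 without DHX34 and 20.2% ± 3.25 without UPF1 (SD, n = 3 each). In both cases every knockdown library was below every SCR library, with the smallest exact permutation p that 3 against 3 libraries allow (0.10, two-sided, and 0.225 when adjusted over the 36 comparisons of isoform shares). The last exon of GYPE-202 is 94.0% identical to that of GYPB-202 over 201 aligned positions, so the split of reads between the 2 genes is uncertain there, and GYPB was also lower in both knockdowns. The part of this in the share was not tested.

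GYPE-203 carried a premature stop. It replaces exon 3 of GYPE-201 by another of 119 bases, and reading stops after its first 44 bases, which leaves 75 bases to the last exon junction, the arrangement that marks a transcript for NMD. Those 44 bases are shown with the stop codon in capitals, at chr4:143873432-143873475 on the minus strand.
GYPE-203 exon 3: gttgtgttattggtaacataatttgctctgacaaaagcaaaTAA

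Its level was 0.418, 0.791 and 0.806 TPM in SCR, 0.246, 0.317 and 0.273 TPM in the DHX34 knockdown and 1.86, 2.29 and 2.61 TPM in the UPF1 knockdown. All UPF1 libraries were above and all DHX34 libraries below the SCR libraries. The difference between the knockdowns was 7.68-fold (log2 2.94, SE 0.25, adjusted p 0.0025 by edgeR), and the differences from SCR were 1.51 in the UPF1 knockdown (SE 0.31, adjusted p 0.032 by edgeR) and -1.40 in the DHX34 knockdown (SE 0.38, adjusted p 0.13 by edgeR), not called. The expected counts behind these values were 40.2 to 96.1 in SCR, 26.9 to 30.5 in the DHX34 knockdown and 166 to 323 in the UPF1 knockdown. As a share of GYPE TPM it took 1.00% ± 0.33 in SCR, 0.585% ± 0.0807 without DHX34 and 2.61% ± 0.461 without UPF1 (SD, n = 3), so most of the higher GYPE level in the UPF1 knockdown was GYPE-201 and not GYPE-203.

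**Figure D3:**
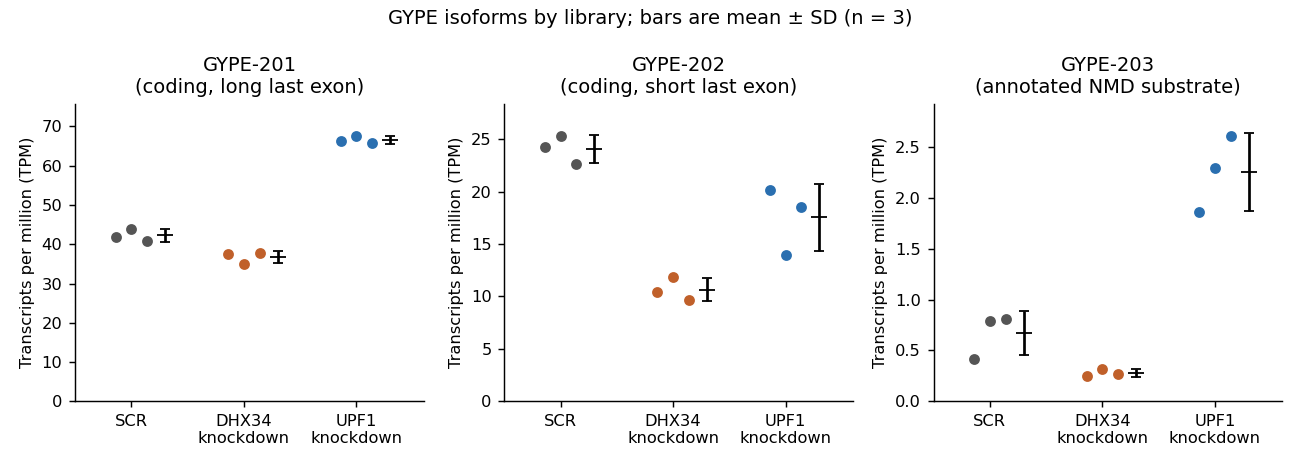
Level of the 3 GYPE transcripts in TPM (vertical axes from 0, a scale for each panel) in every library, with a bar for mean ± SD (n = 3). GYPE-201 and GYPE-203 are highest in the UPF1 knockdown, at 65.8 to 67.7 and 1.86 to 2.61 TPM, while GYPE-202 is lower in both knockdowns than in SCR.

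Shares of annotated NMD substrates in the other members were small. In GYPB they took 3.07% ± 0.217 of TPM in SCR, 3.13% ± 0.516 without DHX34 and 4.98% ± 0.708 without UPF1, where every library was above every SCR library. In EPB41 they took 0.0472% ± 0.0206, 0.122% ± 0.0399 and 0.229% ± 0.0257, and in ANK1 1.35% ± 0.735, 1.03% ± 0.215 and 2.73% ± 0.693 in the same order (SD, n = 3). The UPF1 libraries were thus above the SCR libraries in GYPB, GYPE and EPB41 but overlapped them in ANK1 (exact permutation p 0.10 for each of the first 3 and 0.20 for ANK1, two-sided, 0.225 and 0.36 adjusted over the 36 comparisons). In EPB41 the DHX34 libraries were above SCR as well (exact permutation p 0.10, 0.225 adjusted), but as shares of expected counts these groups overlapped (exact permutation p 0.30). GYPC, SLC4A1 and EPB42 have no transcript of that annotation here. How often such shares separate over all genes was not measured, for these or for the other isoform shares. Separation alone therefore says little about the members in particular.

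Among GYPB transcripts, GYPB-202 (ENST00000502664), with the exon 2 printed above, fell in the UPF1 knockdown by 0.50 on the log2 scale (SE 0.06, adjusted p 0.0044 by edgeR). It was at 106, 107 and 115 TPM in SCR, at 75.8, 71.7 and 90.2 TPM in the DHX34 knockdown and at 89.5, 93.1 and 92.3 TPM in the UPF1 knockdown. GYPB-213, which skips that exon, was at 48.5 to 54.7 TPM in SCR, 26.9 to 39.9 TPM in the DHX34 knockdown and 34.8 to 35.0 TPM in the UPF1 knockdown. Every library of each knockdown was below SCR for both forms. Transcripts with exon 2 took 69.3% ± 1.92 of the TPM that covers its place in SCR, 72.4% ± 4.75 without DHX34 and 76.0% ± 1.09 without UPF1 (SD, n = 3), and the UPF1 libraries did not overlap SCR (exact permutation p 0.10, 0.225 adjusted).

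GYPC was made as 2 main forms that differ by exon 2, a coding exon of 57 bases in the extracellular part (chr2:126690255-126690311, plus strand), which is printed because its use was steady where the level of the gene was not.
GYPC exon 2: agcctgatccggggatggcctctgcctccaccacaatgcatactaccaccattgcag

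Transcripts with this exon, almost all GYPC-201 (ENST00000259254), took 76.8% ± 1.32 of TPM in SCR, 75.7% ± 0.792 without DHX34 and 75.8% ± 0.838 without UPF1 (SD, n = 3). The groups overlapped, with exact permutation p of 0.30 and 0.50. GYPC-201 itself was at 162, 164 and 163 TPM in SCR and at 154, 158 and 160 TPM in the UPF1 knockdown, where it was called lower by 0.30 on the log2 scale of counts (SE 0.03, adjusted p 0.0025 by edgeR). The shorter GYPC-203 was at 45.6 to 52.2 TPM in SCR and at 48.6 to 53.5 TPM in the UPF1 knockdown.

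EPB42 was mostly EPB42-201 (ENST00000441366), which took 79.8% of EPB42 TPM in SCR, 80.5% without DHX34 and 80.9% without UPF1. It was at 2.29, 2.47 and 2.53 TPM in SCR, at 1.28, 1.36 and 1.46 TPM in the DHX34 knockdown and at 1.35, 1.19 and 1.03 TPM in the UPF1 knockdown. The log2 fold change of this coding form was -0.99 without DHX34, which was not called (SE 0.13, adjusted p 0.022 by edgeR), and -1.29 without UPF1, which was (SE 0.15, adjusted p 0.0045 by edgeR). SLC4A1 was mostly SLC4A1-201, at 0.647 to 0.887 TPM in SCR, 1.11 to 1.21 TPM in the DHX34 knockdown and 0.498 to 0.664 TPM in the UPF1 knockdown.

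EPB41 and ANK1 are known for isoforms that change as red cells mature. The 63-base exon 16 of EPB41, at chr1:29060422-29060484 on the plus strand, codes for 21 residues of the part that binds spectrin and actin and is joined in late in that process, so its sequence is shown as the measured feature.
EPB41 exon 16: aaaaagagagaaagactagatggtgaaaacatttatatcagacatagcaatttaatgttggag

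Most EPB41 RNA in these cells lacked it. Transcripts with exon 16 took 8.34%, 9.68% and 9.43% of EPB41 TPM in SCR, 12.3%, 9.03% and 9.68% in the DHX34 knockdown and 10.6%, 12.5% and 9.35% in the UPF1 knockdown. The groups overlapped, and the differences of 1.17 and 1.66 percentage points from SCR had exact permutation p of 0.40 and 0.30 (two-sided). The main form, EPB41-231 (ENST00000647103), lacks exon 16 and starts from the upstream first exon. It was at 37.95, 44.7 and 43.7 TPM in SCR, at 50.3, 52.6 and 55.8 TPM in the DHX34 knockdown and at 49.7, 52.5 and 53.0 TPM in the UPF1 knockdown.

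Transcripts from the downstream first exon of EPB41, as in EPB41-204, took 8.36%, 9.65% and 9.47% of the TPM from both first exons in SCR, 13.4%, 11.6% and 12.1% in the DHX34 knockdown and 9.76%, 12.1% and 9.49% in the UPF1 knockdown. Here the DHX34 libraries did not overlap SCR (exact permutation p 0.10, 0.225 adjusted). EPB41 was also the only member with a changed transcript usage in the DHX34 knockdown (diffSpliceDGE adjusted p 0.000174), where 3.55% of 10531 genes were called at 0.05. That call came from EPB41-205, a form of low level with 0 expected counts in all SCR libraries, 48.3, 230.3 and 76.9 in the DHX34 knockdown, and 165, 0 and 0 in the UPF1 knockdown. The call was lost without SCR replicate 3 (adjusted p 0.061). In the UPF1 knockdown 0 of 5 members tested were called, where 6.28% of 10638 genes were, and in the direct comparison 0 of 5, where 4.41% of 10796 were. In each of these 1 member, GYPE, had an unadjusted p under 0.05 (11.8% and 9.27% of all genes tested). The direct comparison gained 1 call, ANK1 without any DHX34 library or UPF1 replicate 2 and EPB41 without UPF1 replicate 1. By limma's diffSplice GYPE was called in all 3 comparisons, with adjusted p of 0.000897 for the DHX34 knockdown, 0.000131 for the UPF1 knockdown and 0.000286 between them, where it called 8.04%, 20.7% and 13.4% of all genes tested. On simulated counts all of these usage tests called unaltered genes more often than their threshold allows, so a single usage call is weak evidence.

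**Figure D4:**
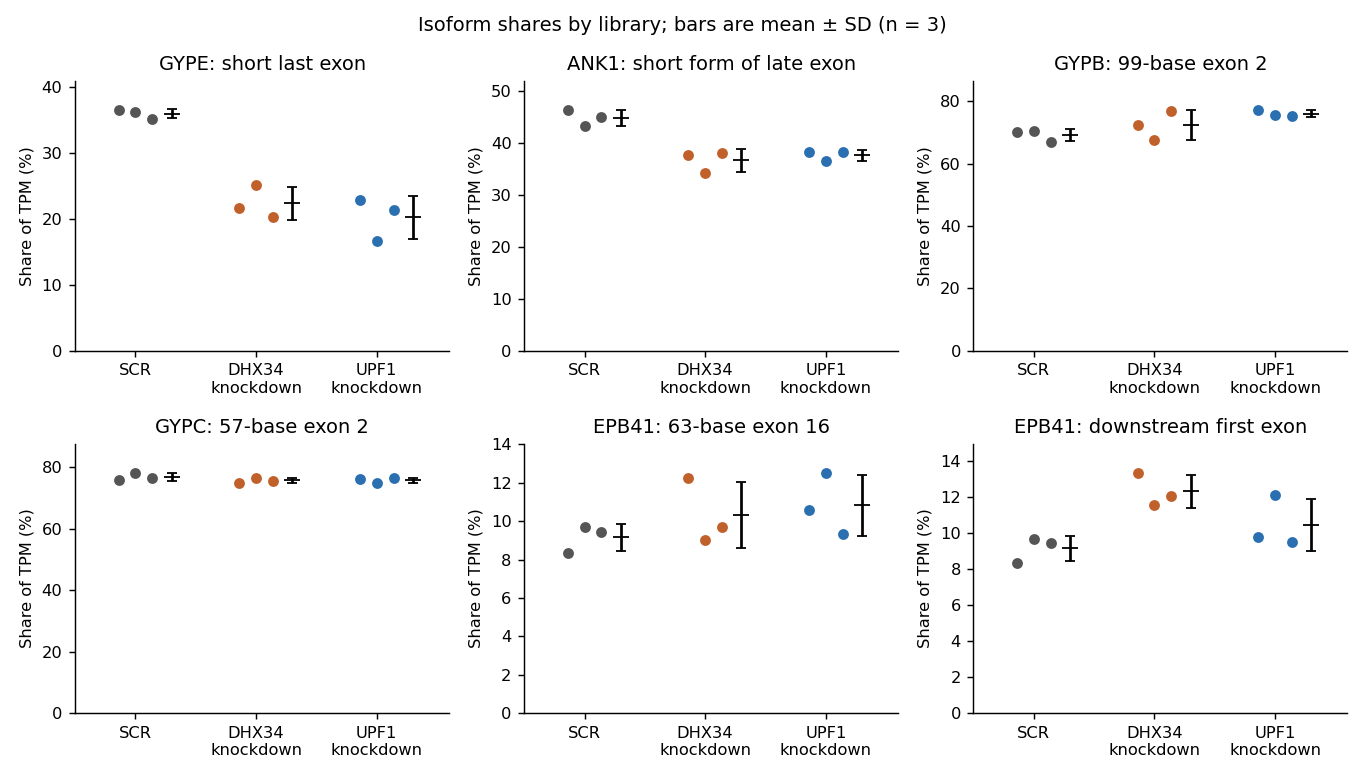
Share of TPM in percent (vertical axes from 0, a scale for each panel) held by named isoform features of GYPE, ANK1, GYPB, GYPC and EPB41 in every library, with a bar for mean ± SD (n = 3). The short last exon of GYPE and the short exon form of ANK1 are lower in all 6 knockdown libraries than in the 3 SCR libraries, and GYPC exon 2 and EPB41 exon 16 overlap between groups.

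ANK1 was made mainly as ANK1-205 (ENST00000347528, 8237 bases) and ANK1-214 (ENST00000645531, a partial model of 2012 bases). They differ in an exon of the regulatory part near the end of the protein, which has 559 bases in the long form and 73 in the short form. The 486 bases left out are 162 codons. ANK1-205 was at 21.3, 23.9 and 21.1 TPM in SCR, at 28.0, 28.0 and 31.5 TPM in the DHX34 knockdown and at 27.5, 27.4 and 26.9 TPM in the UPF1 knockdown. ANK1-214 was at 19.6, 18.1 and 19.0 TPM in SCR, at 17.9, 15.2 and 20.6 TPM in the DHX34 knockdown and at 17.7, 16.5 and 17.2 TPM in the UPF1 knockdown. On the TPM scale the long form was thus above SCR in all 6 knockdown libraries, while the short form was below SCR in the UPF1 libraries and spread around it in the DHX34 libraries. On the scale of counts the long form differed by 0.05 in the UPF1 knockdown (SE 0.04, adjusted p 0.50 by edgeR).

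The short form of the ANK1 exon took 46.4%, 43.2% and 45.05% of the TPM of both forms in SCR, 37.8%, 34.2% and 38.1% in the DHX34 knockdown and 38.4%, 36.5% and 38.3% in the UPF1 knockdown. The differences from SCR were -8.19 and -7.17 percentage points with no overlap (exact permutation p 0.10 each, two-sided, 0.225 adjusted), and the knockdowns overlapped each other. No single ANK1 transcript was called by edgeR: in the UPF1 knockdown ANK1-214 had a log2 fold change of -0.40 (SE 0.06, adjusted p 0.0094), and in the DHX34 knockdown ANK1-205 had 0.25 (SE 0.04, adjusted p 0.042). Transcripts from the first exon of ANK1-201 took 6.64% ± 1.15 of the TPM from that exon and the one of ANK1-205 together in SCR, 4.94% ± 0.611 without DHX34 and 4.34% ± 0.96 without UPF1 (SD, n = 3), and no library of either knockdown overlapped SCR (exact permutation p 0.10 each, 0.225 adjusted). Several forms with a falling share were the shorter model: ANK1-214, GYPE-202 (499 bases, GYPE-201 1684) and GYPB-213 (360 bases, GYPB-202 521). The first exon shares went the other way. ANK1-201 (8478 bases) is longer than ANK1-205, and EPB41-204 (2407 bases), of the rising share, is shorter than EPB41-231 (5772 bases). The part of transcript length in these shares was not tested.

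Relatives of the skeleton and exchanger genes, which serve the same tasks in other tissues, were read from the same fits. Of 10 relatives 7 were tested in each comparison. In the DHX34 knockdown 1 was called higher, where 5.54% of all genes were. In the UPF1 knockdown 1 was called lower (12.9% of all genes), as was 1 in the direct comparison (7.47%). With 7 genes these counts say little about the relatives as a group. EPB41L1 stood at 2.12 to 2.31 CPM in SCR and rose to 3.46 to 3.98 CPM without DHX34 (log2 fold change 0.73, SE 0.13, adjusted p 0.0021 by edgeR), and had 0.35 in the UPF1 knockdown (SE 0.16, adjusted p 0.098 by edgeR). ANK3 fell in the UPF1 knockdown, from 14.8 to 16.5 CPM in SCR to 8.80 to 9.33 CPM (-0.81, SE 0.06, adjusted p 1.83e-06 by edgeR), with -0.21 in the DHX34 knockdown (SE 0.07, adjusted p 0.033 by edgeR) and a called difference of -0.57 between the knockdowns (SE 0.07, adjusted p 6.77e-05 by edgeR). EPB41L2, EPB41L4B, EPB41L5, SLC4A2 and SLC4A3 were called in no comparison.

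The wider set of red cell membrane genes was read from a list of 42 genes for spectrins, adducins, actin partners, blood group proteins, transporters and complement regulators, of which 39 were tested. Of these, 6 rose and 2 fell without DHX34, and 4 rose and 11 fell without UPF1, beside the shares of all genes given above for each direction. Between the knockdowns 2 were higher and 13 lower in the UPF1 knockdown. The median log2 fold change of the 39 was 0.06 in the DHX34 knockdown, -0.12 in the UPF1 knockdown and -0.15 between them, against 0.02, 0.02 and 0.01 over all genes. The split of calls depended on the scale: by limma on log2(TPM + 0.5), 8 were higher and 0 lower in the DHX34 knockdown, and 7 were higher and 1 lower in the UPF1 knockdown. The shares of all genes given above for that scale were turned in the same way. With the length trend removed there were 4 higher and 4 lower in the former. The count in the DHX34 knockdown fell to 3 to 5 when SCR replicate 1, 2 or 3 or DHX34 replicate 1 or 2 was left out. In the UPF1 knockdown 6 to 9 remained without SCR replicate 1 or 3 or UPF1 replicate 1 or 2. In the direct comparison 6 to 8 were left without any library but DHX34 replicate 3.

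**Figure D5:**
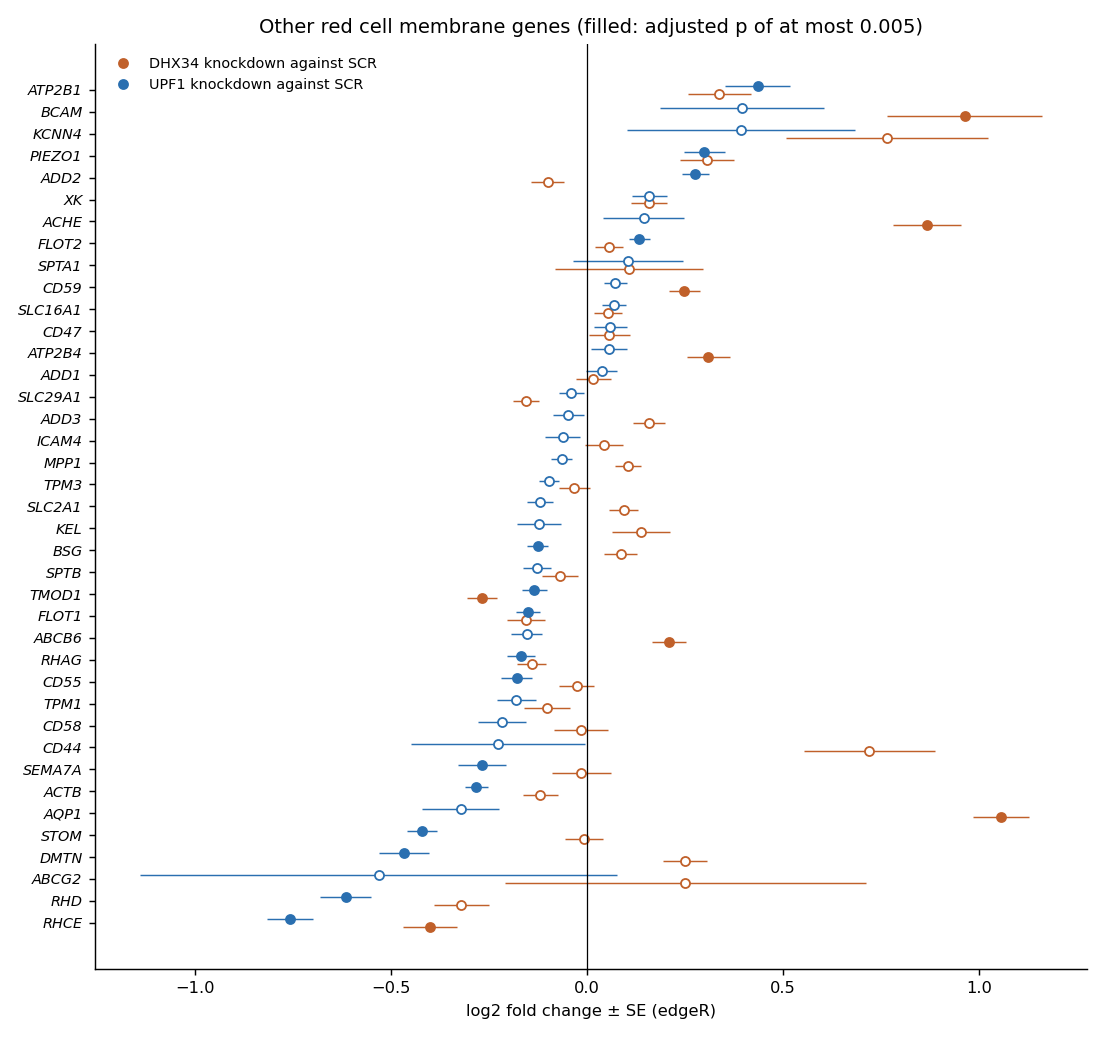
Log2 fold change ± SE (horizontal axis) of the 39 other red cell membrane genes tested, in the DHX34 and the UPF1 knockdown against SCR, ordered by the value in the UPF1 knockdown, with filled points where the edgeR adjusted p was at most 0.005. RHCE is lowest in the UPF1 knockdown at -0.76, and AQP1 is highest in the DHX34 knockdown at 1.06.

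Genes raised most in the DHX34 knockdown were AQP1, the water channel, with 1.06 (SE 0.07, adjusted p 6.41e-06 by edgeR), BCAM, the Lutheran blood group adhesion protein, with 0.96 (SE 0.20, adjusted p 0.0049 by edgeR), and ACHE, the Yt blood group enzyme, with 0.87 (SE 0.09, adjusted p 6.7e-05 by edgeR). AQP1 went from 8.08 to 9.24 CPM in SCR to 17.4 to 18.8 CPM, and BCAM was low throughout, at 0.73 to 0.90 CPM in SCR. The 2 genes that fell there were RHCE, a Rh blood group protein (-0.40, SE 0.07, adjusted p 0.0019 by edgeR), and TMOD1, tropomodulin, which caps the actin filaments (-0.27, SE 0.04, adjusted p 0.00069 by edgeR).

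In the UPF1 knockdown the largest rises were those of ATP2B1, a calcium pump (0.44, SE 0.08, adjusted p 0.0012 by edgeR), PIEZO1, a stretch-gated channel (0.30, SE 0.05, adjusted p 0.00068 by edgeR), and ADD2, beta adducin (0.28, SE 0.03, adjusted p 3.76e-05 by edgeR). The largest falls were those of RHCE (-0.76, SE 0.06, adjusted p 1.46e-06 by edgeR), RHD (-0.62, SE 0.06, adjusted p 1.25e-05 by edgeR) and DMTN, dematin, which bundles actin (-0.47, SE 0.06, adjusted p 9.67e-05 by edgeR). RHCE and RHD are near-identical neighbours, so reads may be split between them. RHCE stood at 16.1 to 17.3 CPM in SCR, 11.8 to 13.5 CPM in the DHX34 knockdown and 9.67 to 10.1 CPM in the UPF1 knockdown, with no overlap between groups.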

How the data were processed

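Poly(A) RNA of 9 K562 libraries was compared in 3 groups of 3 replicates set by the labels (whose cell line field reads K652). The study describes the replicates as biological. Per the study's methods, siRNA was given at the start and again on day 3. The authors quantified reads with salmon and its GC bias correction on Ensembl release 93 (GRCh38). Their deposited tables give expected counts, which need not be whole, and TPM for each of 203027 transcripts. The authors' sleuth tables (effects, p-values and q-values) and SUPPA2 tables (changes in the fraction spliced in) hold their own comparisons and were not used.

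Transcript identifiers were matched with GENCODE release 44 (97.9% of transcripts and 98.1% of counts matched, 85.8% of them with equal lengths), and expected counts were summed per gene and rounded. Genes, and transcripts alone, were fitted with edgeR 4.0.16 in R 4.3.3 (quasi-likelihood test, TMM scaling, filterByExpr at min.count 10), separately for each pair of groups with its 6 libraries, and called where the p adjusted after Benjamini and Hochberg did not exceed 0.005. CPM shown are TMM-scaled over all 9 libraries. For transcript usage diffSpliceDGE and its Simes p were used, called at 0.05. Isoform shares are ratios of summed TPM over transcripts grouped by exon structure, set against each other by an exact permutation test (two-sided), which cannot go below 0.10 with 3 against 3 libraries. DESeq2 1.42.0, limma 3.58.1 and other settings were run as alternatives, and the fits were tested on simulated data. The gene fit made few false calls there, while the usage tests, limma's included, made more than their threshold allows. Totals of 73478797 to 103625443 counts limit the precision of members at few CPM.

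The members, lists and tests were chosen with earlier results of these data known. Named transcripts held at least 10% of their gene's TPM in a group (at most 5 a gene) or were called. Named other genes were the 3 called genes with the largest rise and the 3 with the largest fall per comparison, and all relatives tested. EPB41-204, EPB41-205, ANK1-201 and the marker LYZ were named after their values were seen.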

Additional observations from a re-analysis of the deposited data

Results flagged for a closer look

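Some genes and transcripts differed between the knockdowns in the direct comparison of UPF1 with DHX34 libraries, by edgeR at an adjusted p of at most 0.005, which is why they are listed here. GYPE was higher in the UPF1 knockdown by 0.85 on the log2 scale, GYPE-201 by 0.80 and GYPE-203 by 2.94, and GYPB by 0.25. SLC4A1 was lower there, with a log2 difference of -0.98, and was higher than SCR in every DHX34 library and lower than SCR in every UPF1 library, at 2.15 to 5.26 CPM in all.

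Of the other red cell membrane genes named, ADD2 (0.39) and TMOD1 (0.15) were higher in the UPF1 knockdown than in the DHX34 knockdown. AQP1 (-1.36), CD44 (-0.93), ACHE (-0.71), DMTN (-0.70) and RHCE (-0.34) were lower there. CD44, an adhesion receptor, was at 1.34 to 1.88 CPM in SCR, 2.51 to 2.61 CPM in the DHX34 knockdown and 0.99 to 1.65 CPM in the UPF1 knockdown. RHCE and TMOD1 were below SCR in both knockdowns, so their direct differences are of degree. What underlies these differences was not tested.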

How the results depend on the processing

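Leaving out any 1 library kept the 3 member genes called in the DHX34 knockdown (GYPB, GYPE and EPB42) and the 4 called in the UPF1 knockdown (those and GYPC). The 3 became 7 with no filter, 6 by DESeq2 and 6 at an adjusted p of at most 0.05, settings that called 11.7%, 17.7% and 25.9% of all genes. Between the knockdowns 3 were called, 1 by limma on either log2(TPM) scale, and 2 to 5 without 1 library, 5 without DHX34 replicate 3. The cause of the changes given here was not tested.

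For the other red cell membrane genes, the counts of 39 tested were 8, 15 and 15 in the DHX34, UPF1 and direct comparisons. In the DHX34 knockdown they became 16 with no filter, 15 by DESeq2, 3 with length-scaled counts and 20 at 0.05, and 3 to 9 without 1 library. There length-scaled counts called 4.34% of all genes, while the shares with no filter, by DESeq2 and at 0.05 are given above. In the UPF1 knockdown they became 6 with length-scaled counts, where 16% of all genes were called. Limma with pseudocounts of 0.5 and 0.1 called 8 in each case (20.3% and 20.9% of all genes). At 0.05 there were 23 (40.3%), and without 1 library 6 to 12. In the direct comparison they became 6 with length-scaled counts, where 9.59% of all genes were called. Limma with the same pseudocounts called 5 and 4 (8.26% and 8.39% of all genes). The count was 24 at 0.05 (32.6%), and 6 to 17 without 1 library. On the TPM scale in the UPF1 knockdown 7 of the 8 called were higher, against 4 of 15. On that scale limma on log2(TPM + 0.5) called 18.7% of all genes higher and 1.64% lower.

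Member transcripts called were 0, 4 and 2 in the same order. DESeq2 called 7, 10 and 4 (4.57%, 13.9% and 7.23% of all transcripts), and at 0.05 there were 5, 10 and 4 (2.62%, 10.3% and 5.83%). With limma on log2(TPM + 0.5) 1 was called in the DHX34 and 2 in the UPF1 knockdown. Without 1 library 0, 0 and 0 to 1 were called. Calls over all transcripts also fell then, to 0 in the DHX34 knockdown and as given above in the others. Members with changed usage were 1, 0 and 0, and 0 to 1, 0 and 0 to 1 without 1 library. By limma's diffSplice they were 2, 1 and 1 (8.04%, 20.7% and 13.4% of all genes tested). The gene-level F test called 2, 1 and 1 (5.21%, 14.5% and 9.09%).

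The share of EPB41 TPM with exon 16 differed between the knockdowns by 0.49 percentage points and by -0.36 to 1.46 without 1 library, negative without UPF1 replicate 2 (-0.36) or DHX34 replicate 2 (-0.16). Against SCR it stayed positive, at 0.205 to 1.82 in the DHX34 and 0.809 to 2.39 in the UPF1 knockdown. ANK1, called nowhere, changed sign without DHX34 under length-scaled counts (-0.0053), and without UPF1 with all 9 libraries fitted (0.00063), with limma at pseudocounts of 0.5 and 0.1 (0.12 and 0.12, below the medians of all genes of 0.17 and 0.21) and without SCR replicate 2 (0.0105), with a range of -0.0286 to 0.0105 without 1 library.

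Replicate numbers are shared between groups, and a fit with a replicate block was run. Samples of equal number correlated in their deviations by -0.39 to 0.28. Over the 3 comparisons, a library of the first group correlated best with its own number in 3 of 9 cases. With 3 libraries a group, these values cannot settle whether samples of equal number were handled together. Under the replicate block the other red cell membrane genes called were 3 in the DHX34 and 8 in the direct comparison (5.92% and 13.3% of all genes). Member transcripts called were 0 in the UPF1 and 0 in the direct comparison. There 0 of all 62497 and 0 of all 64325 transcripts were called, so this fit says nothing about the member transcripts in particular.

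By the shares of expected counts, added after seeing the data, several differences from SCR were smaller in percentage points with the same sign. In the DHX34 and UPF1 knockdowns they included -4.25 and -4.72 for GYPE-202 and -4.11 and -3.73 for the short ANK1 exon. The SCR shares were lower by counts as well, at 9.05% for GYPE-202 and 15.6% for the short ANK1 exon. GYPB exon 2 (1.47 and 3.28) and the downstream first exon of EPB41 (1.82 and 0.740) also differed by less. Others were larger, such as -1.94 and -2.53 against -1.70 and -2.30 by TPM for the ANK1-201 first exon, and GYPC exon 2 between the knockdowns turned from 0.0609 to -0.0228. Depth limits the precision of SLC4A1 and EPB42, at 2.15 to 6.31 CPM, and of GYPE-203.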
